A study of Mus musculus with 6 samples.

Results

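The immediate early and isolation stress genes are 31 genes, Fos, Fosb, Jun, Junb, Jund, Atf3, Egr1, Egr2, Egr3, Klf2, Klf4, Klf6, Klf10, Nr4a1, Nr4a2, Nr4a3, Ier2, Ier3, Ier5, Dusp1, Zfp36, Btg2, Socs3, Gadd45b, Gadd45g, Myc, Mcl1, Hspa1a, Hspa1b, Rhob and Sgk1. They were taken by symbol, and all 31 were found among the 32285 features of the count files. Together they held 129916 of the 141935868 UMIs (unique molecular identifiers, which count captured RNA molecules) of the nuclei kept here, or 0.0915%. The study sequenced nuclei from the livers of 6 male mice of strain C57BL/6JBomTac, 18 weeks old, fed chow and fasted overnight for 12 hours. The 3 control mice were littermates of the 3 knockout mice, in which Plvap was deleted from hepatic stellate cells (HSC), and each mouse gave 1 library. The labels name the allele Plvaptm1.1Salm and the transgene Tg(Lrat-cre)1Rshw for all 6 mice alike, so whether the controls carried Cre is not given. Lrat, whose regulatory sequence drives Cre, is active in stellate cells, which store retinoids beside the sinusoids. The labels call the mice of a group separate animals.

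Immediate early genes are transcribed within minutes of a stimulus, without new protein synthesis, when kinases switch on transcription factors already bound at their promoters, such as SRF, CREB and MEF2. Many encode transcription factors, and others encode inhibitors that end the response. Their transcripts are short-lived, and they are known to be induced while tissue is dissociated or nuclei are isolated. In endothelium, Klf2 and Klf4 are known as genes that follow shear stress through the MEK5-ERK5-MEF2 pathway, and Nr4a1 is an early gene of monocytes and macrophages.

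Promoter stretches are shown for the 2 members with the smallest p-values in the comparison of endothelial with macrophage nuclei, Klf2 and Nr4a1, and for 3 others that hold a complete element for one of those factors. The sequences are from RefSeq on GRCm38.p6, 5′ to 3′ on the strand of the gene, and capitals mark the element named in each line.
Klf2 (chr8:72318842-72319031, plus strand, 220 to 31 bases before the start, MEF2 element in capitals): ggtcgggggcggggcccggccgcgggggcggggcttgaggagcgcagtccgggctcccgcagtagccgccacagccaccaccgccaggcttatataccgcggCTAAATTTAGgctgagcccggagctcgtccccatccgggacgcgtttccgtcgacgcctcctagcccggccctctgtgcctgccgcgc
Nr4a1 (chr15:101266626-101266815, plus strand, 220 to 31 bases before the start, none of the elements that are in capitals in the other lines): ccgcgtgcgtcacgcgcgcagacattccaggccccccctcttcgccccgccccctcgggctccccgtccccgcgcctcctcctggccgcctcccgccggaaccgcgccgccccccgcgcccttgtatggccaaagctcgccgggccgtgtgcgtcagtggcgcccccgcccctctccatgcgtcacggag
Jun (chr4:95052223-95052280, minus strand, 58 to 1 bases before the start, MEF2 element in capitals): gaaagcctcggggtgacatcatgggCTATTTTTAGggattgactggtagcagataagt
Btg2 (chr1:134079289-134079346, minus strand, 191 to 134 bases before the start, cAMP response element in capitals): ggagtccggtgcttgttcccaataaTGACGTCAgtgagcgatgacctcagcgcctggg
Dusp1 (chr17:26508583-26508640, minus strand, 168 to 111 bases before the start, cAMP response element in capitals): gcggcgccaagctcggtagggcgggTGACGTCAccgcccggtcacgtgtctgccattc

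These stretches come from a search of the 250 bases before the first listed start of the 26 members that the table holds, on both strands. The Klf2 stretch ends just before the annotated gene, whereas the Nr4a1 stretch lies inside the gene, before the start of a shorter transcript. The bases after the listed Btg2 start were not found in its annotated transcripts, unlike those of the other genes shown. The MEF2 element was found in 3 of 26 promoters (Klf2, Jun and Atf3), against 0.518% of 27025 mouse promoters of the same length. The cAMP response element TGACGTCA was found in Btg2 and Dusp1, 2 of 26, against 1.62% of all promoters. The CArG box, the site of SRF, was found in 1 of 26, Zfp36, against 1.4%. Egr2 held it too, but only at starts listed later, which were not counted. The GC box GGGCGG was found in 22 of 26, against 32.9%. The AP-1 element TGANTCA and the heat shock element were found in 0 of 26, against 6.87% and 0.4% of all promoters. A match describes the letters only, and these shares were not tested.

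The 6 files held 27297 barcodes, of which 25646 nuclei were kept, 3526 to 5005 per library at median depths of 4075 to 5332 UMIs, and 69 barcode sequences occurred in more than 1 library. Nuclei were clustered without the members, and each class below is a group of clusters named from marker genes, so that "endothelial" stands for endothelial-like nuclei. In endothelial nuclei the 13 endothelial markers summed to 16797 to 20564 CPM (counts per 1000000 UMIs of the class), against 948 to 1349 in macrophage nuclei, and the 10 macrophage markers to 9435 to 15291 CPM in macrophage nuclei, against 98.2 to 161 in endothelial ones. Some libraries stood apart. Hepatocyte clusters 7 and 16 held nearly all hepatocytes of control 1 (77.8% and 21.9%) and knockout 2 (78.4% and 20.5%), and at most 0.8% of those of any other mouse, so results are also given without these 2 mice. Knockout 1 stood apart as well, since cluster 11 held 77.6% of its hepatocytes and at most 2.22% of those of any other mouse. Plvap, the targeted gene, was at 206 to 235 CPM in control and 152 to 221 CPM in knockout stellate nuclei. A 3′ tag can lie outside a deleted part, so this does not check the deletion.

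Among the 7 larger classes, the members took on average the largest share of RNA in macrophage nuclei. Their summed level was 1508 ± 218 CPM there, 1083 ± 199 in B cells, 889 ± 105 in endothelial nuclei, 809 ± 189 in hepatocytes, 768 ± 64.3 in T/NK cells, 607 ± 106 in cholangiocytes and 601 ± 107 in stellate nuclei (SD, n = 6 mice). Macrophage values ranged from 1316 to 1881 CPM and overlapped with those of B cells, whose highest mouse was at 1418. The endothelial, hepatocyte and T/NK ranges overlapped one another too. With each nucleus thinned to 1500 UMIs, a macrophage nucleus held UMIs of 1.96 ± 0.257 different members, a B cell of 1.37 ± 0.21 and an endothelial nucleus of 1.19 ± 0.115 (SD, n = 6). Unthinned, the mean number of different members per nucleus ran from 1.37 to 5.68 over these 7 classes and the 6 mice, and levels per class rest on sums over 534 to 9138 nuclei. Neutrophils, with 1 to 12 nuclei a mouse, were at 1868 to 5732 CPM, and the few plasma cells and dendritic cells or monocytes reached 2522 and 2630 CPM, and these small classes enter no comparison. A level is compared between classes for 1 gene at a time, since CPM are not scaled for gene length.

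**Figure D1:**
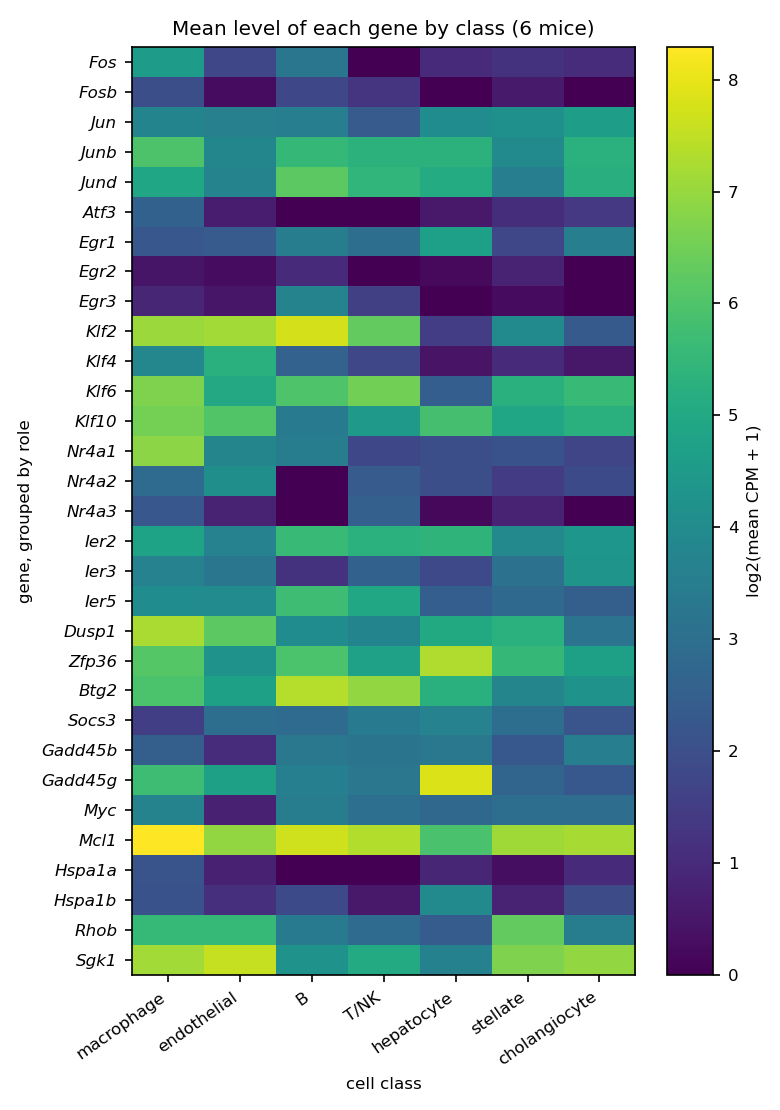
Mean level of each of the 31 genes (rows, grouped by role) in 7 cell classes (columns), as log2 of the mean CPM over 6 mice plus 1, from dark (0) to yellow. Macrophage nuclei have the highest mean for 11 genes, B cells for 7 and hepatocytes for 5, with Gadd45g in hepatocytes among the brightest cells.

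Macrophages had the highest mean level of 11 members, B cells of 7, hepatocytes of 5, endothelial nuclei and cholangiocytes of 3 each, and T/NK cells and stellate nuclei of 1 each. For 2 of these 31, Nr4a1 and Gadd45g, the 6 mice of the leading class lay above all mice of the class next in order. Among the AP-1 genes, which encode the subunits of a dimeric transcription factor, Fos was at 24.4, 21.1 and 16.2 CPM in macrophage nuclei of controls 1 to 3, and 12.9, 45.7 and 15.1 in knockouts 1 to 3. In endothelial nuclei Fos was at 1.73 to 3.86 CPM and in hepatocytes at 0.597 to 1.44. Fos was thus higher in macrophages than in these 2 classes in all 6 mice, and it was at 0 in T/NK cells of every mouse. Jun, its partner, had its lowest mean in T/NK cells, at 4.2 CPM, and its highest in cholangiocytes, at 23.8. The other ranges overlapped, with 8.54 to 15.8 CPM in macrophage, 8.5 to 14.5 in endothelial, 3.1 to 22.7 in hepatocyte and 11.1 to 22.5 in stellate nuclei. Junb was at 61.5 ± 8.77 CPM in macrophage and 12.9 ± 3.15 in endothelial nuclei (SD, n = 6). Atf3, a stress-induced repressor of the same bZIP family, was low everywhere, at 2.35 to 9.55 CPM in macrophage, 0 to 1.26 in endothelial, 0.119 to 1.2 in hepatocyte and 0 to 2.63 in stellate nuclei.

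Of the EGR zinc finger factors, Egr1 had its highest mean in hepatocytes and Egr3 in B cells. Egr1 was at 7.75, 7.93 and 11.6 CPM in hepatocytes of controls 1 to 3, and 13.6, 14.3 and 91.5 CPM in knockouts 1 to 3. Knockout 3 stood far above the other 5 mice, and the hepatocyte mean of 24.5 CPM rests on it. Egr2 averaged at most 1.01 CPM in any of the 7 classes, and Egr3 reached 12 CPM in B cells, where 1 mouse, control 2, was at 42.2 CPM and the others between 2.03 and 13.2.

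The Krüppel-like factors are transcription factors with distinct cell type ranges, and their levels differed widely between classes. Klf2, the flow-responsive factor that also keeps lymphocytes quiescent, had mean levels of 216 CPM in B cells, 139 in endothelial nuclei, 130 in macrophages and 78.3 in T/NK cells, against 14.7 in stellate nuclei, 4.09 in cholangiocytes and 1.86 in hepatocytes. The endothelial range, 78.5 to 194 CPM, overlapped with those of B cells (172 to 278) and of macrophages (101 to 152), which did not overlap with each other, and the values of stellate nuclei (5.89 to 23.8 CPM) lay below all of them. A Klf2 UMI was found in 10.9% to 23.4% of endothelial and 14.4% to 20.5% of macrophage nuclei thinned to 1500 UMIs. In thinned hepatocytes the share was 0% to 0.51%. Hepatocyte nuclei were deeper, at medians of 9185 to 11748 UMIs, against 3170 to 3974 in endothelial and 4021 to 5257 in macrophage nuclei. Their share after thinning therefore does not measure free RNA in the other classes. Klf4 had its highest mean, 37.3 ± 15.6 CPM, in endothelial nuclei, and Klf6 and Klf10 had theirs in macrophages at 101 ± 17.8 and 93.4 ± 14.3 CPM (SD, n = 6).

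Nr4a1 (ENSMUSG00000023034, chromosome 15, 101254269 to 101274795), an orphan nuclear receptor, was higher in macrophages than in any other of the 7 classes in all 6 mice. It was at 111, 101 and 77.4 CPM in controls 1 to 3, and 96.3, 171 and 127 in knockouts 1 to 3 there, against 8.31 to 17.3 CPM in endothelial nuclei. Its paralog Nr4a2 was instead highest in endothelial nuclei, at 16.4 ± 3.03 CPM, and lower in macrophages on average, at 6.5 ± 6.08 (SD, n = 6). Nr4a2 in macrophages was at 9.92 and 17.3 CPM in control 1 and knockout 2 and at 0.883 to 3.91 in the other 4 mice. Ier2 and Ier5, nuclear proteins of the IER family, were highest in B cells at 46.6 and 52 CPM, and Ier3 in cholangiocytes at 18.5 CPM.

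The feedback inhibitors led in macrophages, B cells or hepatocytes. Dusp1, the phosphatase that shuts off p38 and JNK, was at 149 ± 52 CPM in macrophages and 72.7 ± 18.4 in endothelial nuclei. Zfp36, which destabilises mRNAs such as that of tumour necrosis factor, was at 159 CPM in hepatocytes, Btg2, an antiproliferative cofactor of deadenylases, at 165 in B cells, and Socs3, the inhibitor of JAK-STAT signalling, at 11.7 in hepatocytes. Gadd45g, a stress and growth arrest gene, was at 231 CPM in hepatocytes and at most 52.1 on average in the other 6 classes. Mcl1, an antiapoptotic BCL2 relative, was high in all 7 classes, at 312 CPM in macrophages and 59.6 in hepatocytes. Rhob, a small GTPase, led in stellate nuclei at 78.1 CPM, and Sgk1, a kinase induced by glucocorticoids and osmotic stress, in endothelial nuclei at 188 CPM.

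Of the inducible HSP70 genes, Hspa1a was sparse in every class, and Hspa1b was highest in hepatocytes. Hspa1a was at 8.31, 1.3 and 0.294 CPM in macrophages of controls 1 to 3, and 0.644, 9.08 and 1.26 in knockouts 1 to 3. Elsewhere Hspa1a did not pass 1.8 CPM in endothelial, hepatocyte or stellate nuclei of any mouse. Hspa1b was at 30.6, 6.47 and 10.8 CPM in control and 14.4, 23.7 and 1.96 CPM in knockout hepatocytes, on 15 to 332 UMIs a mouse. The 2 genes are near-identical copies that share 63.8% of the 31-base words of Hspa1a. They share 0 in the last 300 bases, where 3′ tags are expected, but how shared reads were assigned is not given, so their split is uncertain. Whether counting used strand is not given either, so for Jun, Junb, Jund, Atf3, Zfp36 and Hspa1a reads of an overlapping gene on the opposite strand, and for Dusp1 also of genes on the same strand, cannot be told apart.

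Endothelial and macrophage nuclei were then compared within the 6 mice. Of the 31 genes, 12 were higher in macrophages without overlap between the 6 mice of each class, 1 was higher in endothelial nuclei and 18 overlapped. Among the 13926 genes tested in both classes, 26.4% lay higher in macrophages and 24% higher in endothelial nuclei by the same rule. The 12 were Fos, Fosb, Junb, Jund, Atf3, Klf6, Nr4a1, Ier2, Zfp36, Gadd45b, Myc and Mcl1, of which Fosb was too low to be among those tested. The 1 was Socs3, at 6.96 ± 2.01 CPM in endothelial and 1.9 ± 0.793 in macrophage nuclei (SD, n = 6). Klf2, Jun, Ier5 and Rhob had nearly equal means in the 2 classes, with 139 and 130, 11.3 and 12.4, 14.9 and 15.5, and 45.6 and 46.1 CPM.

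The knockout was compared with the control in each class, with counts summed per mouse. In endothelial nuclei no member passed an adjusted p of 0.05 in edgeR's quasi-likelihood test with Benjamini-Hochberg adjustment, 0 of the 22 tested, as against 0% of 13210 genes. The smallest adjusted p among members was 0.9999. DESeq2 called 0 members as well, in this class and in each of those below. At an unadjusted p under 0.05 there were 2 members, Nr4a1 and Klf2, beside 4.28% of all genes. The direction of the 22 was mostly downward, with 18 lower and 4 higher in the knockouts and a median log2 fold change of -0.31, where 51% of all genes were lower and their median was 0.00. Without control 2 the members' median was -0.16. With scaling by library size alone the split was 15 lower and 7 higher, since Gadd45g, Jund and Mcl1 changed sign. The 9 members not tested for low counts were Atf3, Egr2, Egr3, Fosb, Gadd45b, Hspa1a, Hspa1b, Myc and Nr4a3.

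Klf2 (ENSMUSG00000055148, chromosome 8, 72319033 to 72321656) was at 127, 193 and 194 CPM in endothelial nuclei of controls 1 to 3, and 135, 108 and 78.5 CPM in knockouts 1 to 3. Controls 2 and 3 lay above all knockouts, and control 1 below knockout 1, so the groups overlapped. The log2 fold change was -0.72 (SE 0.245), unadjusted p 0.0204 and adjusted p 0.9999 in edgeR. Without the filter on low counts the adjusted p was 1.05e-04 in edgeR, and Klf2 was then the 1 member called, beside 80 of 23361 genes. The mean of the 3 knockouts lay below that of the 3 controls in each of the 5 endothelial clusters. In cluster 0, with Stab2, Flt4 and Kdr among its leading genes, Klf2 was at 109, 131 and 170 CPM in controls. Knockouts were at 95, 91.4 and 55.6 CPM there. The share of all genes that separate in this cluster was not determined, and clusters of the same mice are not further replicates.

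Klf4, the other flow-responsive factor, was at 33.4, 59 and 49.2 CPM in control and 41.4, 18.5 and 22.3 CPM in knockout endothelial nuclei. Knockouts 2 and 3 were the lowest mice and knockout 1 lay within the controls. The log2 fold change was -0.81 (SE 0.357, unadjusted p 0.0589 in edgeR). All 4 Krüppel-like factors had a negative fold change under each scaling, Klf10 of -0.42 (SE 0.291) and Klf6 of -0.31 (SE 0.181). Klf10, which is induced by TGF-beta, was at 81.3, 87.6 and 50.4 CPM in control and 45.4, 43.8 and 79.5 in knockout endothelial nuclei, and Klf6 at 28.4, 40.2 and 33.3 against 33.9, 26.1 and 24.4. Both overlapped between the groups.

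Nr4a1 was at 17.3, 14.8 and 12.5 CPM in endothelial nuclei of controls 1 to 3, and 9.56, 12.7 and 8.31 CPM in knockouts 1 to 3. Knockout 2 lay just above control 3, and the other mice separated. The log2 fold change was -0.59 (SE 0.197, unadjusted p 0.012, adjusted p 0.9999 in edgeR). An Nr4a1 UMI was found in 1.25% to 2.42% of thinned endothelial nuclei, and in 0% to 1.32% of thinned hepatocytes. Its level was 8.31 to 17.3 CPM in endothelial nuclei and 0.907 to 8.41 in hepatocytes. It was 2.37 to 4.1 CPM in stellate nuclei, 0 to 4.57 in T/NK cells and 0 to 5.73 in cholangiocytes. In B cells it ran from 0 to 24.1 CPM. The part of free RNA in the endothelial level was not tested.

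Btg2 was at 25.2, 30.3 and 28.9 CPM in control and 16.6, 26.1 and 24.2 CPM in knockout endothelial nuclei, a log2 fold change of -0.39 (SE 0.181, unadjusted p 0.0535 in edgeR). Ier5 was at 16.8, 20.9 and 11 CPM against 15.1, 14.5 and 11.1, and Rhob at 31.4, 61.5 and 54.6 against 46.4, 33.8 and 45.9, and in both the groups overlapped. The 1 tested member whose groups did not overlap was Sgk1, at 172, 169 and 185 CPM in control and 189, 198 and 218 in knockout endothelial nuclei. Its log2 fold change was 0.16 (SE 0.102). By the same rule 6.94% of all genes were higher in the knockouts, and 2.78% lower, with 0 tested members among the latter. Hspa1a and Hspa1b, too low to be tested, were lower in the knockouts without overlap, on 25 and 39 UMIs in all. Egr1 was uneven, at 2.49, 0.943 and 6.94 CPM in controls and 2.69, 10.6 and 1.89 in knockouts, and its fold change of 0.56 turned to -0.51 without knockout 2.

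**Figure D2:**
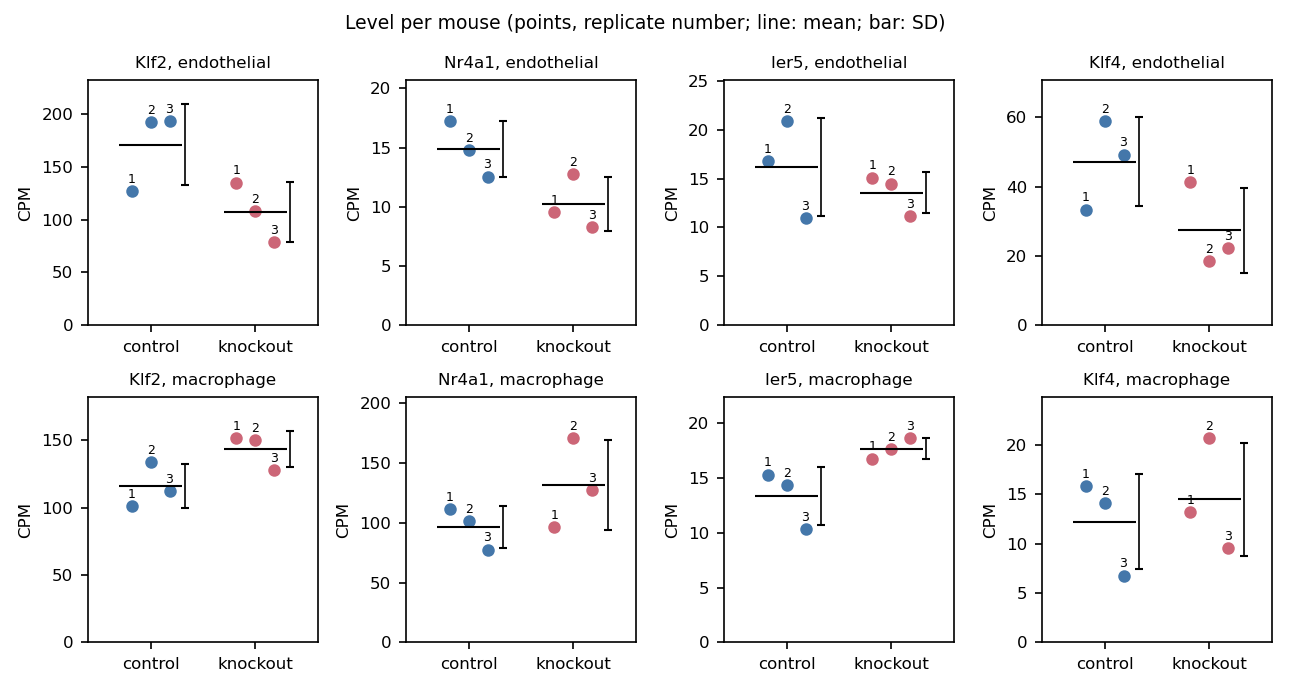
CPM per mouse (y axis, starting at 0) of Klf2, Nr4a1, Ier5 and Klf4 in endothelial (upper row) and macrophage nuclei (lower row), for controls (blue) and knockouts (red), with the replicate number at each point, the mean as a line and the SD as a bar. Endothelial Klf2 runs from 78.5 to 194 CPM with knockout 3 lowest, whereas macrophage Klf2 runs from 101 to 152 CPM with control 1 lowest.

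In macrophage nuclei the members leaned the other way. Of 24 tested, 0 passed an adjusted p of 0.05 in edgeR, beside 0% of 12039 genes. At an unadjusted p under 0.05 there was 1 member, Egr1, beside 3.26% of all genes. In all, 19 were higher and 5 lower in the knockouts, with a median log2 fold change of 0.20, where 49.4% of all genes were lower and their median was 0.00. This median rests largely on 1 library, since it was 0.018 without knockout 2 and 0.042 without control 1 and knockout 2. It was 0.12 without control 3, 0.32 without control 1 and 0.37 without knockout 3. With scaling by library size alone Dusp1 also changed sign, to 20 higher and 4 lower.

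Klf2 was at 101, 134 and 112 CPM in macrophages of controls 1 to 3, and 152, 150 and 128 CPM in knockouts 1 to 3. Knockouts 1 and 2 lay above all controls, and knockout 3 below control 2. The log2 fold change was 0.29 (SE 0.137, unadjusted p 0.062 in edgeR). For Nr4a1, whose values per mouse are given above, it was 0.43 (SE 0.208, unadjusted p 0.0703 in edgeR), and 0.19 without knockout 2. The 2 tested members whose groups did not overlap, both higher in the knockouts beside 5.38% of all genes, were Ier5 and Egr1, and 0 were lower beside 3.47%. Egr3, too low to be tested, was also higher without overlap, on 18 UMIs in all.

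Ier5 (ENSMUSG00000056708, chromosome 1, 155096361 to 155099636) was at 15.3, 14.3 and 10.3 CPM in control and 16.7, 17.6 and 18.6 CPM in knockout macrophages. All knockouts lay above all controls by a narrow margin. The log2 fold change was 0.39 (SE 0.195, unadjusted p 0.075 in edgeR). Egr1 was at 1.07, 1.56 and 1.18 CPM in controls 1 to 3, and 4.51, 5.67 and 8.55 CPM in knockouts 1 to 3, which are 4, 6 and 4 UMIs against 14, 20 and 34. The log2 fold change of 2.26 (SE 0.403) came with unadjusted p 2.23e-04 and adjusted p 0.577 in edgeR. Without the filter on low counts Egr1 was called, beside 33 of 22065 genes. Egr1 UMIs were in 0.23% to 0.32% of control and 1.11% to 1.9% of knockout macrophages, against 6.74% to 29.9% of hepatocytes, at median depths of 4021 to 5257 and 9185 to 11748 UMIs. With nuclei thinned, these shares were 0% to 0.238%, 0.448% to 0.975% and 1.11% to 10.5%.

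Hepatocyte markers were higher in the knockouts in both classes, and also in stellate nuclei, T/NK cells and B cells. The 11 hepatocyte markers, all detected, summed to 531 to 663 CPM in control and 863 to 1136 CPM in knockout macrophages. The sums were 687 to 899 and 992 to 1520 CPM in endothelial nuclei, and 547 to 673 and 813 to 1431 in stellate nuclei. They were 918 to 1310 and 1584 to 2011 CPM in T/NK cells, and 1090 to 1387 and 1910 to 2339 in B cells. The groups overlapped in none of these classes, but did so in hepatocytes themselves. A second list of 18 hepatocyte genes, those abundant as free RNA, overlapped between the groups in macrophages, endothelial nuclei and stellate nuclei. It was at 3438 to 4775 and 3866 to 5677 CPM in macrophages and 2881 to 3596 and 3236 to 5075 in endothelial nuclei. In T/NK cells, B cells and hepatocytes this second list was higher in the knockouts without overlap. The 6 neutrophil markers, with Ly6g at 0, summed to 168 to 188 CPM in control and 140 to 159 in knockout macrophages. The mesothelial list was also lower there without overlap, and the plasma cell and plasmacytoid dendritic lists were higher. The remaining lists overlapped in macrophages. The part of these marker lists in the Egr1 result and in the other member levels was not tested. Klf2 was at 1.11 to 3.66 CPM in hepatocytes, below its 78.5 to 194 CPM in endothelial and 101 to 152 CPM in macrophage nuclei.

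The remaining named members overlapped between the groups in macrophages. Myc, the growth regulator, was at 8.85, 11.7 and 9.71 CPM in control and 11.3, 15.9 and 14.6 CPM in knockout macrophages, a log2 fold change of 0.45 (SE 0.221, unadjusted p 0.0715 in edgeR). Jund, the most constantly expressed AP-1 gene, was at 26.8, 28.4 and 22.1 CPM against 34.8, 34.9 and 26.9 (0.30, SE 0.164). Klf6 was at 98.9, 97.8 and 87.1 against 112, 130 and 80.7 CPM. Rhob and Klf10 had log2 fold changes of 0.19 and -0.03. The 7 members not tested in macrophages were Egr2, Egr3, Fosb, Hspa1a, Hspa1b, Nr4a3 and Socs3.

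A single fit over the 12 sums, with terms for the mouse, the class and their genotype by class interaction, tested whether the knockout effect differed between the 2 classes. No member passed, 0 of 26, beside 0% of 13926 genes. At an unadjusted p under 0.05 there were 4 members, Klf2, Nr4a1, Ier5 and Klf6, beside 3.94% of all genes. The term was lower in endothelial nuclei for 22 and higher for 4, with a median of -0.35 on the log2 scale, where 48.4% of all genes were lower and their median was 0.01. The opposite directions of the members in these classes were known from these data beforehand. This fit therefore only describes a pattern already seen, and its p-values and the ratios below are not separate evidence for that pattern.

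Klf2 showed it most directly. Its endothelial level divided by its macrophage level was 1.26, 1.44 and 1.72 in controls 1 to 3, and 0.891, 0.718 and 0.614 in knockouts 1 to 3. In every control endothelial nuclei held more Klf2 than macrophages, and in every knockout they held less. The difference of the effect was -1.01 (SE 0.168), unadjusted p 4.73e-05 and adjusted p 0.33 in edgeR, and leaving out any 1 mouse gave -1.16 to -0.89. For Nr4a1 the ratio was 0.155, 0.146 and 0.162 in controls and 0.0993, 0.0747 and 0.0654 in knockouts, a difference of -0.97 (SE 0.186, unadjusted p 1.66e-04, adjusted p 0.463 in edgeR). Its knockouts too all lay below its controls, although neither class alone separated them.

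For Ier5 the ratio was 1.1, 1.46 and 1.06 in controls and 0.901, 0.824 and 0.599 in knockouts, a difference of -0.68 (SE 0.245, unadjusted p 0.016, adjusted p 1 in edgeR). Klf2, Nr4a1 and Ier5 were the 3 members whose ratios did not overlap between the groups, all lower in the knockouts, beside 3.88% of the 12781 genes with UMIs in every sum, and 0 were higher beside 5.92%. Without the filter on low counts, Klf2, Nr4a1 and Klf4 passed the adjusted threshold, beside 34 of 24611 genes. Klf6 had a difference of -0.45 (SE 0.208, unadjusted p 0.0495 in edgeR) with overlapping ratios of 0.287 to 0.412 in controls and 0.201 to 0.302 in knockouts. Without control 1 and knockout 2 the median difference was -0.42, and it was -0.63 without control 1, -0.60 without knockout 3 and, over all 6 mice left out in turn, at most -0.25.

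**Figure D3:**
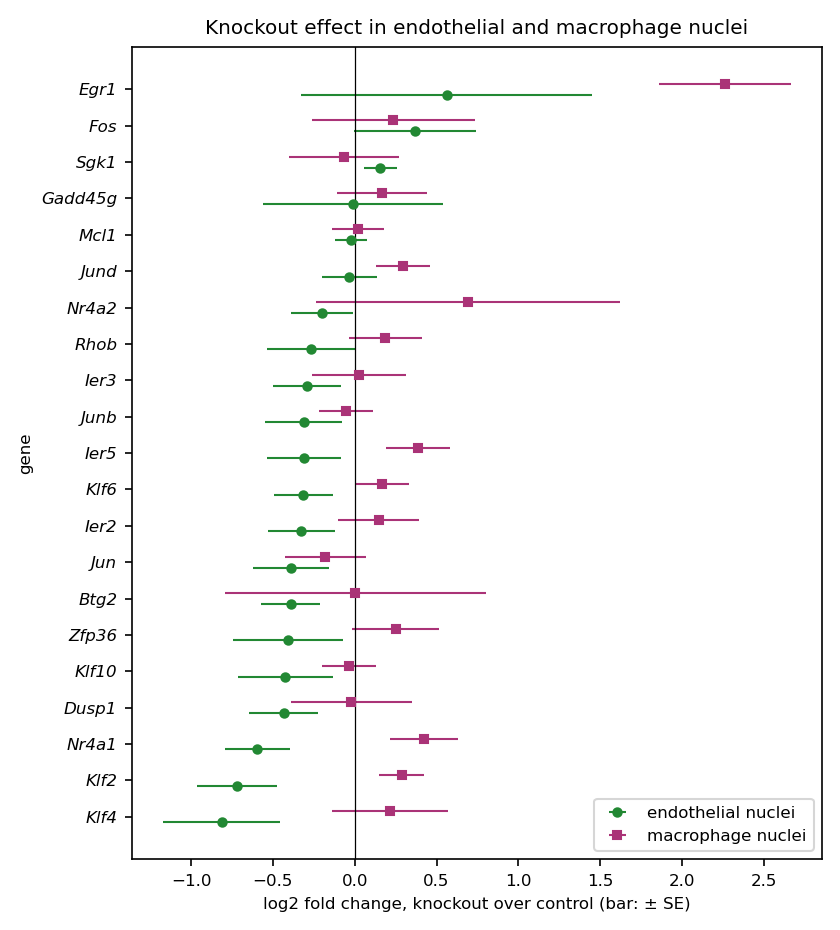
Log2 fold change, knockout over control, with its SE as a bar, of the 21 genes tested in both endothelial (green circles) and macrophage nuclei (purple squares), ordered by the endothelial value. Klf4, Klf2 and Nr4a1 lie lowest on the endothelial side with positive macrophage values, and no gene in the plot passed the adjusted threshold.

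In hepatocytes no member passed, 0 of 23 tested in edgeR, beside 0% of 13765 genes, and 1, Egr1, had an unadjusted p under 0.05, beside 3.5%. The 23 divided into 9 higher and 14 lower, with a median log2 fold change of -0.14, which was 0.17 without control 2, 0.16 without knockout 1, -0.44 without knockout 2, -0.23 without knockout 3 and -0.062 without control 1. Egr1 was also the 1 member whose groups did not overlap, beside 4.44% of genes higher and 3.15% lower in the knockouts. Its log2 fold change was 2.08 (SE 0.794, unadjusted p 0.0336 in edgeR), and it was 0.51 without knockout 3, the mouse at 91.5 CPM. In hepatocyte cluster 6, the level of Egr1 was 111 CPM in knockout 3, whereas controls 2 and 3 had 7.69 and 14.4 CPM, and the 27 nuclei of knockout 1 had 23.1 CPM.

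Gadd45g was at 106, 340 and 388 CPM in hepatocytes of controls 1 to 3, and 175, 241 and 139 CPM in knockouts 1 to 3. Control 1 was the lowest mouse and controls 2 and 3 the highest, and the log2 fold change of -0.70 (SE 0.493) was -1.11 without control 1 and -0.31 without control 3. Junb was at 41.1, 35.4 and 9.73 CPM in control and 18.4, 71.8 and 59.3 in knockout hepatocytes, with overlap. Klf10 followed the libraries rather than the groups, at 123, 37.2 and 11.9 CPM in controls and 15.5, 115 and 35.7 CPM in knockouts. The 2 high mice, control 1 and knockout 2, are those whose hepatocytes lay in clusters 7 and 16, and in cluster 7 Klf10 was at 141 and 132 CPM. The leading genes of that cluster included Angptl8, G0s2 and Gpd1, and those of cluster 6 Hal, Cps1 and Ppargc1a, and their part in the Klf10 levels was not tested.

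**Figure D4:**
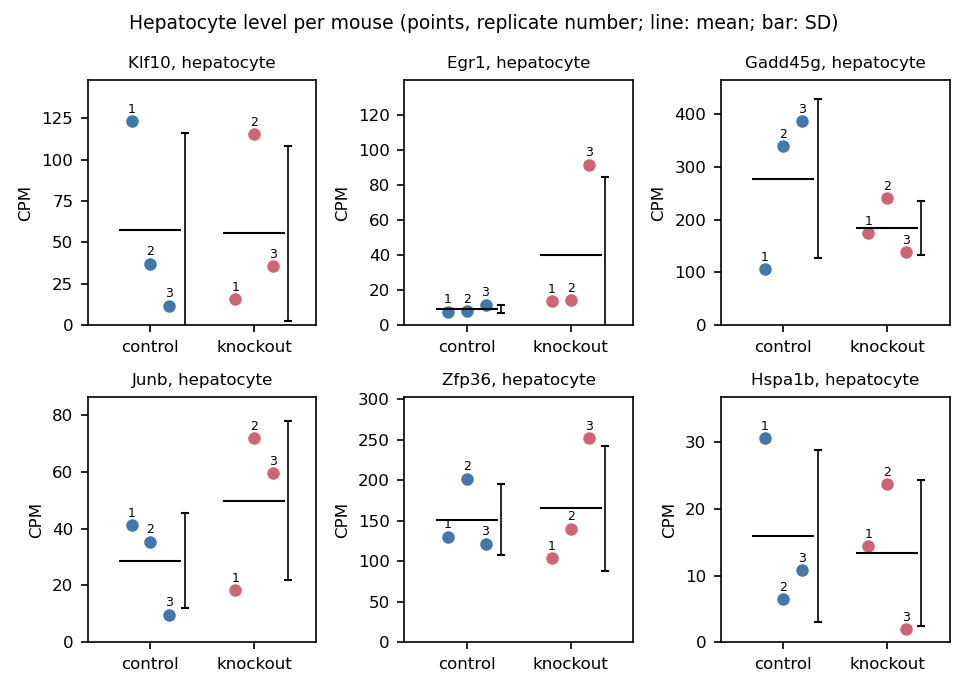
CPM per mouse (y axis, starting at 0) in hepatocytes of Klf10, Egr1, Gadd45g, Junb, Zfp36 and Hspa1b, for controls (blue) and knockouts (red), with replicate numbers, the mean as a line and the SD as a bar, which is cut at 0. Klf10 is high in control 1 and knockout 2, at 123 and 115 CPM, and Egr1 in knockout 3 alone, at 91.5 CPM.

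In stellate nuclei, the cells in which Plvap was targeted, 0 of 20 members passed in edgeR, beside 0.0491% of 12222 genes, and 0 had an unadjusted p under 0.05, beside 3.68%. The split was 7 higher and 13 lower, with a median log2 fold change of -0.12, which was 0.091 without control 2, -0.27 without knockout 3 and near 0 without knockout 1 or 2, and 9 higher and 11 lower with scaling by library size alone, where Junb and Sgk1 changed sign. Jun was at 11.1, 17.1 and 14.9 CPM in control and 15.2, 21.4 and 22.5 in knockout stellate nuclei (0.39, SE 0.225), with overlap. Ier2 was at 16.7, 16.8 and 14.2 CPM against 7.44, 10.9 and 18, and Ier5 at 8.51, 5.69 and 5.97 against 4.74, 6.39 and 5.74. Klf2 was at 5.89, 18.3 and 14.9 CPM against 17.9, 7.52 and 23.8, with no order by group. Nr4a1 was the 1 tested member whose groups did not overlap, at 3.6, 3.59 and 4.1 CPM in controls and 2.37, 3.39 and 2.46 in knockouts, beside 2.96% of genes that were lower and 7.15% that were higher by this rule. Of the members too low to be tested, Fos, Fosb and Hspa1a were higher in the knockouts without overlap, on 21, 8 and 4 UMIs in all.

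In T/NK cells 0 of 10 members passed in edgeR, beside 0.0155% of 6457 genes, with 5 higher and 5 lower. There 0 had an unadjusted p under 0.05, beside 4.31%, and 0 of those tested had groups without overlap, beside 5.62% of genes higher and 4.15% lower. In B cells 0 of 9 passed, beside 0.0614% of 4887 genes, with 2 higher and 7 lower. Btg2 was at 194, 211 and 181 CPM in control and 134, 180 and 91.2 in knockout B cells, which all lay below the controls, beside 4.19% of genes lower and 4.95% higher by this rule. Its log2 fold change was -0.57 (SE 0.236, unadjusted p 0.023, adjusted p 0.995 in edgeR), and it was the 1 member with an unadjusted p under 0.05, beside 4.28% of genes. Klf2 was at 172, 278 and 229 CPM in control and 185, 187 and 247 in knockout B cells, and at 63.2, 88.4 and 70.1 against 57.2, 83.8 and 107 in T/NK cells, with overlap in both.

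The mice differed within a group as well. The median over members of each mouse's deviation from the mean of the 6 mice, in log2, had an SD within groups of 0.40 in hepatocytes, 0.28 in stellate nuclei and B cells, 0.20 in macrophages, 0.17 in endothelial nuclei and 0.11 in T/NK cells. In hepatocytes control 2 was highest at 0.47 and knockout 1, with its hepatocytes mostly in cluster 11, lowest at -0.54. In endothelial nuclei control 2 was also highest at 0.37 and knockout 1 lowest at -0.15, whereas in macrophages knockout 2 was highest at 0.39 and control 3 lowest at -0.23. Control 2 was also highest in stellate nuclei at 0.28 and in B cells at 0.40. In T/NK cells and macrophages, where knockout 2 was highest, control 2 came next at 0.074 and 0.021. No mouse was thus highest in all classes, but control 2 was highest in all except T/NK cells and macrophages.

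The makeup of the macrophage class differed between mice. Cluster 4, with Il1b, Entpd1 and Hdac9 among its leading genes, held 81.8%, 5.2% and 17.9% of macrophage nuclei in controls 1 to 3, and 58.5%, 88.1% and 1.9% in knockouts 1 to 3. Btg2 was at 104, 40.4 and 35 CPM in macrophages of these controls and 35.7, 123 and 23.4 in the knockouts. It was high in the 2 mice with the largest shares, whereas knockout 1, with 58.5%, lay between controls 2 and 3. The summed level of all members was lowest in control 1 and highest in knockout 2, the same 2 mice, at 1316 and 1881 CPM. Within cluster 4 Btg2 was still at 105 and 128 CPM in those mice and at 37.3 to 50.8 in the others with values there. In cluster 3, with Cd163, Cd5l and Clec4f, Btg2 was at 61.7 CPM in control 1 and 31.1 in knockout 2, beside 20.2 to 38.5 in the other 4 mice. The part of the class makeup in the member levels was not tested. For Klf2, cluster 3 gave 79.3, 132 and 117 CPM in controls and 179, 106 and 126 in knockouts.

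**Figure D5:**
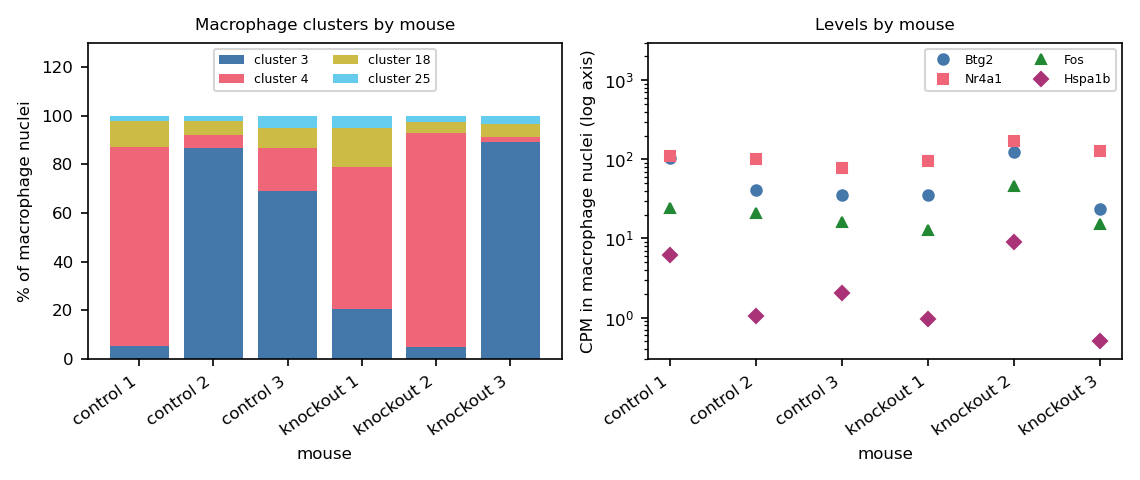
Left, share of macrophage nuclei in each of 4 clusters by mouse (stacked bars, percent). Right, CPM of Btg2, Nr4a1, Fos and Hspa1b in macrophage nuclei by mouse on a log axis, where control 1 and knockout 2 have the highest Btg2, at 104 and 123 CPM, and the largest shares of cluster 4, at 81.8% and 88.1%.

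Other genes of the pathway, from lists written for this comparison with earlier results of these data known, passed no test either. Their directions are therefore no separate evidence. Of all genes tested, 51% were lower in endothelial nuclei and 49.4% in macrophages. Of 34 further early response genes, 27 were tested in endothelial nuclei, 8 higher and 19 lower, with a median log2 fold change of -0.12, and 24 in macrophages, 20 higher and 4 lower, with a median of 0.14. Of 10 heat shock chaperones, 1 was higher and 9 were lower in endothelial nuclei, and of the 9 tested in macrophages 8 were higher and 1 lower. In hepatocytes 0 were higher and 10 lower, and in stellate nuclei 5 were higher and 4 lower. The 22 upstream kinases and transcription factors, including Srf, Creb1, Mapk14 and Hsf1, divided evenly, with 11 higher and 11 lower in endothelial nuclei and 12 higher and 10 lower in macrophages. Hes1, a target of Notch, was at 67.7, 69.2 and 60 CPM in control and 46.3, 47.7 and 42.1 CPM in knockout endothelial nuclei. The groups did not overlap, beside 2.78% of all genes lower and 6.94% higher by this rule. Hes1 was picked for the smallest p of its list. Its log2 fold change was -0.58 (SE 0.111), unadjusted p 3.32e-04 and adjusted p 0.398 in edgeR. Bhlhe40, a clock-linked repressor, was at 9.79, 12.4 and 9.4 CPM against 7.61, 6.95 and 7.93 (unadjusted p 0.0208 in edgeR). Among genes with the smallest p in macrophages were Dusp2 at 0.79 (SE 0.375) and Ccn1 at -0.94 (SE 0.463), neither past the threshold.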

How the data were processed

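RNA was measured in liver nuclei of 6 mice with the 10x Genomics Single Cell 3′ kit, per the labels' protocols. The deposited files hold raw UMI counts per gene and barcode. Cell Ranger is 7.0.1, with mm10, per the submitters' processing notes and 7.1.0 per the file headers. The sources used here do not give the use of introns or strand. Groups are the genotype labels, and replicate numbers follow accession order and pair no mice. The members and lists were chosen with earlier results of these data known.

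A nucleus needed 500 genes, 1000 UMIs, under 5% mitochondrial UMIs and no mark as a doublet (scrublet, scanpy 1.11.5, marked 821). Leiden clusters (leidenalg 0.10.2, resolution 1, 3000 variable genes, 30 components, no batch integration) left out 76 genes, namely the members, related early and heat shock genes and Plvap. Clusters with over 90% of 1 library, hepatocytes excepted, or with leading genes of another class were not named, under thresholds set after seeing clusters. Counts summed per mouse and class were tested with edgeR 4.0.16 (quasi-likelihood, TMM, filterByExpr, robust) in R 4.3.3, adjusted over all tested genes. SE derive from the F statistic, and CPM are of unscaled class totals. Named members had the smallest unadjusted p among those with means of at least 5 CPM. Up to 8 were named in endothelial and macrophage nuclei and 3 in hepatocyte and stellate nuclei. For endothelial and macrophage nuclei this p was the smaller of that in the class and that of the difference of effects. This favoured members whose effects differed between the classes. Fos, Jun, Egr1, Atf3, Hspa1a and Klf2 were named beside them. Of each further list, genes past the threshold or else the 2 with the smallest p were named. Others were named after their values were seen. Alternatives were other scaling, no filter, DESeq2 1.42.0, thinned nuclei, kept doublets, resolution 0.5, mitochondrial UMIs under 1%, and left-out mice. The tests were tried on simulated counts. Positions are from GENCODE M21 on mm10.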

Additional observations from a re-analysis of the deposited data

How the results depend on the processing

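No paired analysis was possible because the labels give no replicate numbers that tie a control to a knockout mouse, and the numbers used here follow accession order only. With 3 mice a group, depth limits the members at a few UMIs per library, and no statement rests on their absence. Classes were rebuilt and can differ from those of the study.

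Without the low-count filter the genes called were 80 of 23361 in endothelial, 33 of 22065 in macrophage and 61 of 22517 in stellate nuclei. They were 6 of 17816 in T/NK and 15 of 16556 in B nuclei, and 34 of 24611 in the comparison of endothelial with macrophage effects. Of the 31 members, 1 was called in endothelial nuclei (Klf2), 2 in macrophages (Fosb and Egr1) and 3 in that comparison (Klf2, Nr4a1 and Klf4). DESeq2 called 17 endothelial, 8 macrophage, 19 hepatocyte and 13 stellate genes, with 0 members. Thinned nuclei gave 1 gene in endothelial and 1 in B nuclei, and a mitochondrial share under 1% gave 0 in T/NK cells. Without control 1 and knockout 2 the genes called were 8 in endothelial, 2 in macrophage, 2 in T/NK and 17 in B nuclei and 1 in the comparison of effects. The median over members in T/NK cells moved from -0.09 to -0.26 with thinned nuclei and to 0.15 with the mitochondrial limit. The causes were not tested.

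Some single members changed sign. Without control 1 and knockout 2, Egr1 in endothelial nuclei was at -0.70, Klf10 in macrophages at 0.018, Fos in macrophages at -0.44 and the difference of effects of Myc at -0.43. With thinned nuclei that difference was -1.43 for Myc and 0.0092 for Btg2.

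Leaving out 1 mouse at a time gave 0 to 6 genes called in endothelial, 1 to 3 in T/NK and 2 to 18 in B nuclei and 0 to 1 in the comparison of effects, with 0 members. Medians over members then ranged from -0.39 to -0.16 in endothelial nuclei, 0.018 to 0.37 in macrophages, -0.44 to 0.17 in hepatocytes, -0.27 to 0.09 in stellate nuclei, -0.18 to 0.17 in T/NK cells, -0.31 to 0.22 in B cells and -0.63 to -0.25 for the difference. Ranges that crossed 0 were -0.51 to 1.51 for Egr1 in endothelial nuclei, -0.19 to 0.10 for Klf10, -0.57 to 0.53 for Fos and -0.17 to 0.78 for Atf3 in macrophages, -0.080 to 0.63 for Klf2 in stellate nuclei, and -0.90 to 0.43 for Btg2 and -0.41 to 1.13 for Myc in the difference. Klf2, Nr4a1, Ier5, Klf6 and Rhob kept their sign in endothelial nuclei, in macrophages and in the difference under all alternatives run. Some came near 0 with 1 mouse left out. In macrophages Klf6 fell to 0.0082 and Rhob to 0.015, and in endothelial nuclei Rhob was at -0.061 and Ier5 at -0.074. These members were among those picked by the smallest p-values, in a class or in the difference, in these same data.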

Other observations

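Nuclei outside the named classes also held members. Cluster 21, which scored as endothelial and was left unnamed, had 21 to 62 nuclei per mouse. Klf2 was at 222, 334 and 342 CPM there in controls 1 to 3, and 265, 126 and 149 CPM in knockouts 1 to 3. Klf4 was at 77.6, 104 and 114 CPM in controls and at 74.3, 32.7 and 37.3 in knockouts. The share of all genes that separate in this cluster was not determined. Klf2 and Klf4 had higher means in cluster 21, at 240 and 73.4 CPM, than in the endothelial class, at 139 and 37.3 CPM, and this was not tested.

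Cluster 20, which scored as cholangiocyte, came almost wholly from control 2, with 276 nuclei. Fos was at 32.8 CPM and Klf2 at 3.33 CPM in it. With 1 library, this cluster allows no comparison between mice.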
